A study of Mus musculus with 9 samples.

Results

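The cytoplasmic ribosomal protein genes were examined in microglia sorted from mouse brain. Members were taken by symbol, as genes named Rpl or Rps with a number and at most a letter a, x or l and a further digit, together with Rplp0, Rplp1, Rplp2 and Rpsa, and without entries marked as pseudogenes. The rule found 84 of the 23238 gene symbols in the files, of which 77 were canonical ribosomal proteins (31 of the small subunit and 46 of the large subunit) and 7 were paralogs. Wild-type (WT) female C57BL/6N mice aged 12 weeks were sampled at day 1, and the sort for microglia took CD45+CD11b+P2ry12+ cells. Normal mice were untreated. NMO mice had received a unilateral injection into the striatum of patient NMO-IgG, an antibody against the astrocyte water channel aquaporin-4, with human complement, which models neuromyelitis optica. The NMO+CL mice had further received clodronate liposomes by intraperitoneal injection 6 h before, which deplete circulating monocytes and macrophages. There were 3 libraries in each group, and each was a pool of 3 mice. Neither a control antibody nor empty liposomes had a group among the samples analysed here, so the injection, the antibody and complement cannot be told apart, and neither can clodronate and its carrier.

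Each cytoplasmic ribosome holds a single copy of nearly all of these proteins, assembled on ribosomal RNA into a small subunit that reads the mRNA and a large subunit that forms peptide bonds. Their mRNAs usually begin with a stretch of C and T bases at the 5′ end, the TOP motif, through which mTOR signalling and Larp1 set how strongly they are translated. Growth and activation of immune cells are known to go with more ribosome production. RNA levels, as measured here, show neither translation nor the number of ribosomes.

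The libraries held 5788234 to 7837219 counts. Summed over 12 microglia markers, levels were 38417.6 to 43770.5 CPM (counts per library size, scaled by TMM to a common total) in Normal, 32606 to 38519.8 in NMO and 22788.5 to 32840.7 in NMO+CL, with no marker at 0. Among the markers of other cells, 12 neutrophil genes summed to 100.5 to 586.7 CPM in Normal, 156.2 to 486.6 in NMO and 298.8 to 1370.4 in NMO+CL. For 10 monocyte genes the sums were 32.75 to 58.87, 47.92 to 97.01 and 55.63 to 115.5 CPM. The 8 genes of border macrophages gave 159.9 to 307.7, 10.75 to 193.6 and 223.3 to 411.3 CPM, 12 lymphocyte genes gave 15.77 to 20.83, 9.27 to 21.59 and 10.49 to 16.78 CPM with Cd3e at 0 throughout, and 12 genes of astrocytes and oligodendrocytes gave 247.9 to 257.5, 165.6 to 183.6 and 100.4 to 150.4 CPM. Over 5 erythroid genes the sums were 390.7 to 660.4 CPM for Normal, 12.19 to 800.2 CPM for NMO and 850.4 to 978.9 CPM for NMO+CL, so that all NMO+CL libraries exceeded all others, and NMO replicate 2 stood apart at the lowest value. Over 10 neuronal genes they were 25.99 to 224.7, 6.33 to 21.26 and 22.96 to 39.48 CPM, so that all NMO libraries lay below all others, and Normal replicate 1 stood apart at the highest value. The part of these cells in the results below was not tested. In such bulk samples, fewer cells of a type and less RNA per cell cannot be told apart.

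Ribosomal protein genes took a larger share of the counts in all NMO and NMO+CL libraries than in any Normal library. The share was 1.06, 1.32 and 1.21% in the Normal libraries, 1.46, 1.62 and 1.35% in NMO, and 1.52, 1.82 and 1.73% in NMO+CL. Means were 1.2% ± 0.128, 1.48% ± 0.136 and 1.69% ± 0.152 (SD, n = 3). NMO and NMO+CL overlapped, since NMO+CL replicate 1 lay below NMO replicate 2. A single ribosomal RNA entry, Rn45s, took 16 to 31% of a library, and with it left out of the totals the shares were 1.56% ± 0.127, 1.83% ± 0.126 and 2.21% ± 0.116. All NMO+CL libraries then exceeded all others, while the lowest NMO library, at 1.68%, lay just under the highest Normal library, at 1.69%. The ratio of summed CPM of the 31 small to the 46 large subunit genes was 0.649 ± 0.0289, 0.651 ± 0.0282 and 0.624 ± 0.0189 in the 3 groups in that order, and the groups overlapped. At least 1 count was present for 13506 to 14315 gene symbols per Normal library, 12498 to 13139 per NMO library and 12458 to 12944 per NMO+CL library, so the number of genes detected moved with the share, without overlap between Normal and the other groups, and its part was not tested. As the share is a score over the members, it was given no test.

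**Figure D1:**
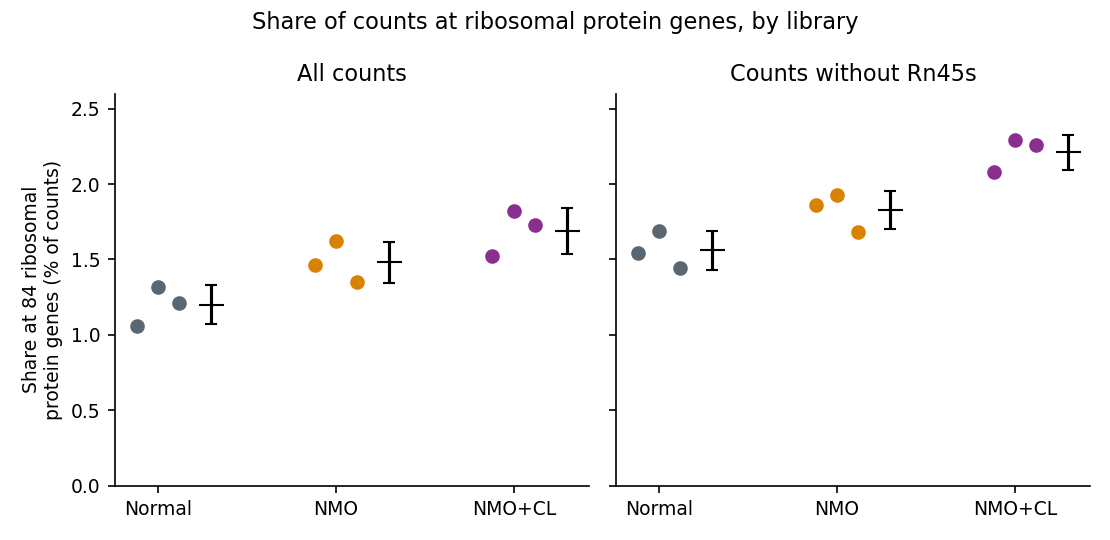
Share of each library's counts at the 84 ribosomal protein genes, in % of all counts (left) and of counts without Rn45s (right). Coloured points are libraries, and the black mark and bar are the mean and SD of 3 libraries. The Normal libraries sit at 1.06 to 1.32% and the NMO+CL libraries at 1.52 to 1.82% of all counts.

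Levels differed widely among genes whose products the ribosome holds, with few exceptions, in equal number. QuantSeq reads the 3′ end of a transcript, so counts were compared between genes on the CPM scale without division by length. The highest was Rplp1, an acidic protein of the stalk that recruits translation factors, at a mean of 1369.4 CPM over the 9 libraries, and it alone took 8.04 to 11.6% of all member counts. Rps14, on the platform of the small subunit, followed at 611.1 CPM and Rps9, near the mRNA entry, at 542.5 CPM. Across libraries the latter pair overlapped, at 411.8 to 810.1 CPM for Rps14 and 425.4 to 691 CPM for Rps9, while the lowest Rplp1 value was 1025.9 CPM. The lowest canonical gene was Rps27 at 23.26 CPM, so that the canonical genes spanned 58.9-fold, and their median was 136.4 CPM. Next above it came Rpl17, a protein of the exit tunnel, at 33.31 CPM. Of the 77 canonical genes, 11 exceeded 300 CPM and 8 stayed under 50 CPM.

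Where a gene has close copies or an overlapping gene, its level on this scale was less certain, because the authors counted reads from unique and multiple alignments. The search covered the last 300 bases of the transcript chosen for each member, so any other 3′ end was not covered. Of the 84 members, 29 shared no 75-base word there with another GENCODE M21 gene, and 33 shared over 50% of these words. Median levels were 200.3 CPM over the 26 tested members without a shared word and 76.8 CPM over those 33. The 29 included Rpl14, Rplp2 and Rps15a, although entries named as pseudogenes of these genes hold counts. Such an entry, Rplp2-ps1, had a mean of 744.1 CPM over the 9 libraries, above Rplp2 at 318.8 CPM and Rps14 at 611.1 CPM. Rps27, Rpl9, Rpl36a and Rpl10 shared 100% of these words with other genes, and Rplp1 shared 52.2%. Rpl31 and Rpl5 also shared 100%, each with the gene that overlaps it on the opposite strand, Tbc1d8 and Fam69a. The effect of shared sequence on the counts was not tested beyond these groups.

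**Figure D2:**
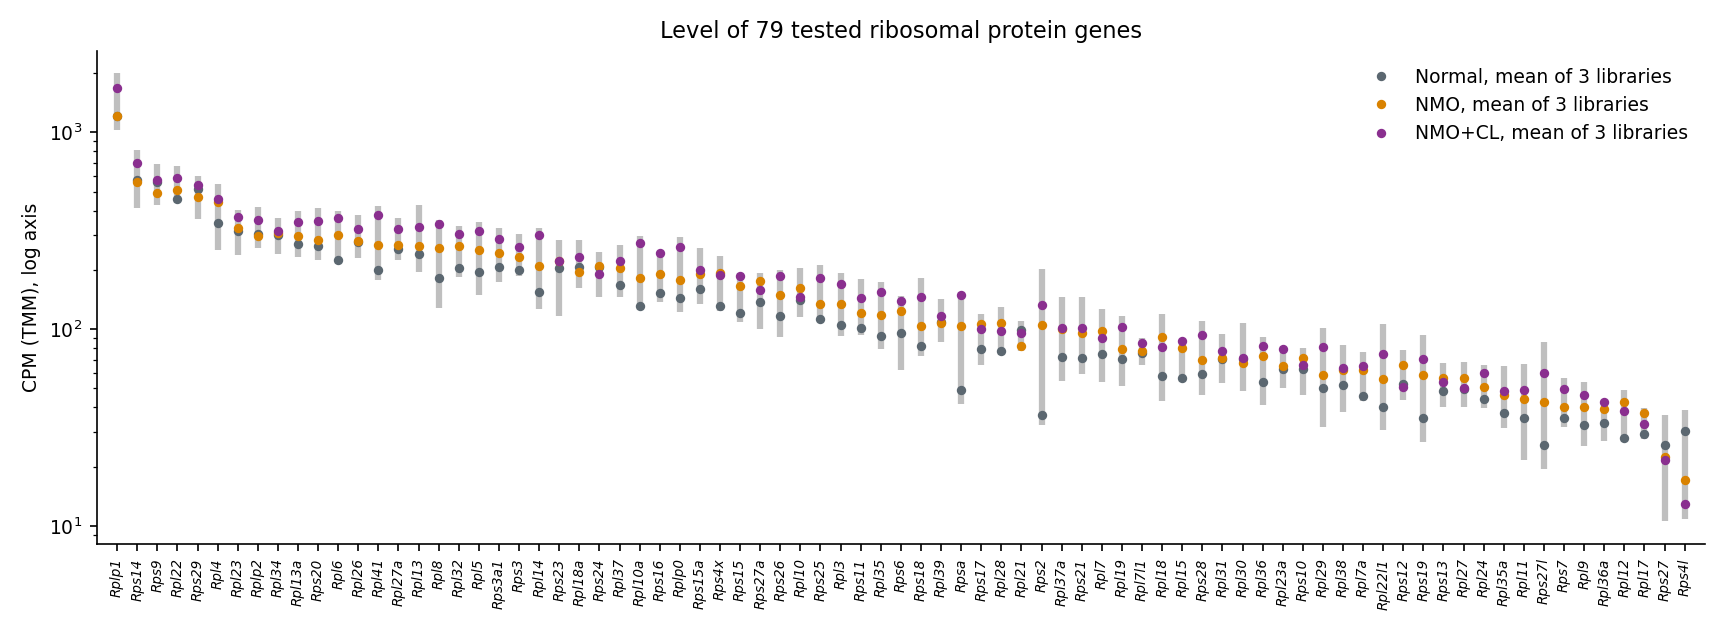
Level of 79 of the 81 tested ribosomal protein genes in CPM on a log axis, ordered by the mean over 9 libraries. Coloured points are group means of 3 libraries and grey bars run from the lowest to the highest library. Rplp1 lies above all others at 1369.4 CPM, and Rps27 and the paralog Rps4l lie at the foot.

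The first comparison, NMO against Normal, asked what the antibody and complement injection changed. Most ribosomal protein genes lay slightly higher in NMO, and 1 of them passed the test. The median log2 fold change was 0.28 over the 81 members tested and -0.01 over all 12292 genes tested, and 70 of the 81 lay above 0, against 49.3% of all genes. By edgeR's quasi-likelihood test with adjustment over all genes, 1 member was called higher, Rps2, where 0.472% of all genes were, and 0 were called lower, where 0.0244% were. At an unadjusted p under 0.05 there were 15 higher and 0 lower, against 6.04% and 3.47% of all genes. The NMO libraries all exceeded the Normal libraries for 26 members, which is 32.1% against 9.21% of all genes, and the reverse held for 1 member, Rpl21, against 8.2%.

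Rps2, which lines the channel where mRNA enters the small subunit, stood at 32.62, 40.56 and 37.29 CPM in the Normal libraries. It reached 73.17, 118.1 and 125.3 CPM in NMO and 202.9, 112.2 and 80.56 CPM in NMO+CL. All 6 libraries of injected mice exceeded all 3 Normal libraries, while NMO and NMO+CL overlapped. It rose by 1.52 ± 0.31 on the log2 scale in NMO (SE, adjusted p = 0.0325), or 2.86-fold, and by 1.84 ± 0.31 in NMO+CL against Normal (adjusted p = 0.00101), or 3.58-fold. The NMO call was lost without NMO replicate 2 or 3, without any single Normal library, and with limma-voom, at log2 fold changes of 1.38 to 1.71 over all alternatives. The gene lies at chr17:24718116-24721929 on the plus strand (GRCm38), and 64.6% of the words at its 3′ end occurred in 29 other genes.

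Rpsa, the laminin receptor homologue at the mRNA exit of the small subunit, was at 61.74, 43.11 and 41.65 CPM in Normal. Its NMO libraries held 86.35, 139.7 and 86.62 CPM, and the NMO+CL libraries 148.4, 142.5 and 154.1 CPM. The 3 groups did not overlap. In NMO against Normal the log2 difference was 1.09 ± 0.24 and missed the threshold (adjusted p = 0.0535). Rpsa was called there with DESeq2's Wald test, library totals, totals without Rn45s or no filter, and without NMO replicate 3. It rose in NMO+CL against Normal by 1.60 ± 0.24 (adjusted p = 4.74e-04), or 3.04-fold. The Rpsa transcript searched shared no 3′ word with another annotated gene, unlike that of Rps2, and any other 3′ end was not searched. Rpsa lies at chr9:120127689-120132369 on the plus strand.

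**Figure D3:**
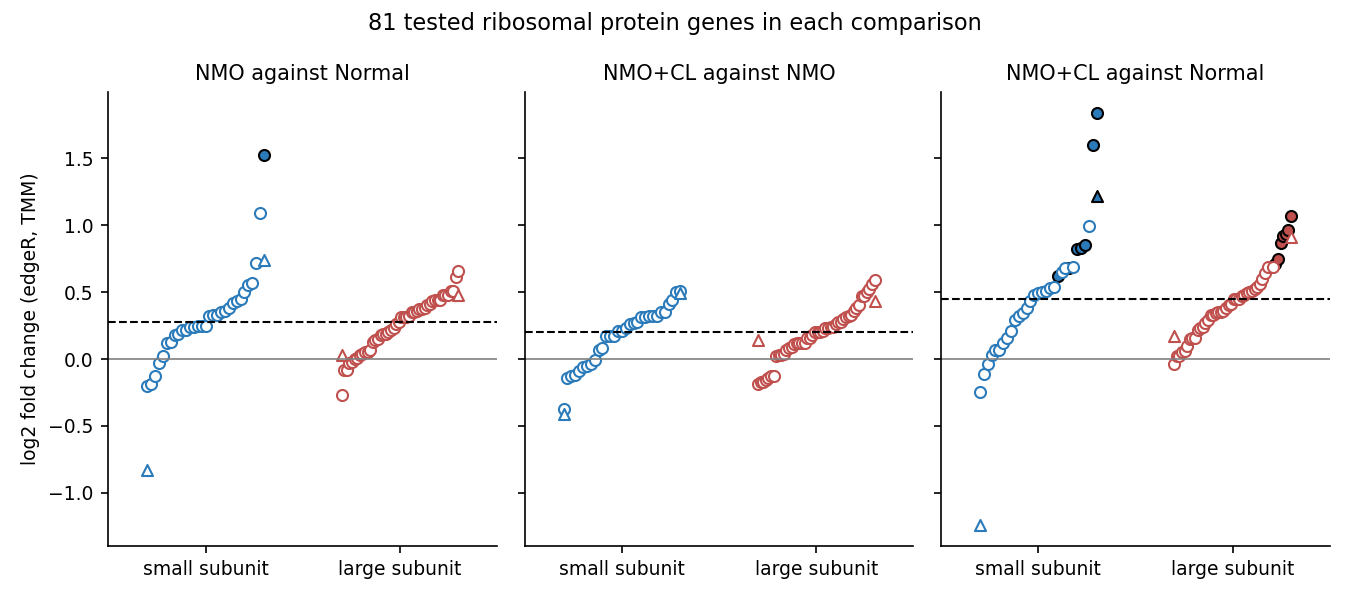
Log2 fold change of each of the 81 tested ribosomal protein genes in the 3 comparisons, small subunit in blue and large subunit in red, sorted within each. Triangles are paralogs, filled symbols were called at an adjusted p under 0.05, and the dashed line is the median of the members (0.28, 0.20 and 0.45 from left to right).

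The second comparison, NMO+CL against NMO, asked what clodronate liposomes added. No single ribosomal protein gene was called in either direction by edgeR, where 0.529% of all genes were called higher and 1.07% lower. At an unadjusted p under 0.05 there were 7 members higher and 0 lower, against 4.92% and 7.47% of all genes, and DESeq2's Wald test called 1, Rpl10a. The median log2 difference was 0.20 against -0.01 over all genes, and 64 of 81 members lay above 0 (49.7% of all genes). NMO+CL exceeded NMO in every library for 16 members (19.8%, against 7.89% of all genes), and the reverse held for 1, Rps12 (9.22%). Rpl10a had the highest difference, at 0.59 ± 0.17 (adjusted p = 0.116), followed by the stalk anchor Rplp0 at 0.56 ± 0.2 (adjusted p = 0.22). Rplp1 was at 1241, 1334.6 and 1069 CPM in NMO and 1380.3, 1657.6 and 1997.4 CPM in NMO+CL, without overlap, a difference of 0.47 ± 0.19 (adjusted p = 0.299).

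The third comparison, NMO+CL against Normal, joins injection and clodronate and shares its libraries with the other two. Here 16 of the 81 members tested were called higher and 0 lower, where 4.78% of all genes were called higher and 4.43% lower. The median log2 fold change was 0.45 (all genes -0.01), and 76 of 81 members lay above 0 (49.4% of all genes). At an unadjusted p under 0.05 there were 32 members higher, against 11% of all genes, and 1 lower, the paralog Rps4l, against 11.3%. Every NMO+CL library exceeded every Normal library for 39 members (48.1%, against 13.8% of all genes). The small subunit had 7 called genes of 31, the large subunit 8 of 46, and the paralogs 1 of the 4 tested. The count was 7 without NMO+CL replicate 2 and also 7 without Normal replicate 3. It was 14 without NMO+CL replicate 1, in which the summed neutrophil markers were at 1370.4 CPM. Of these 14, 11 were among the 16, and Rpl22l1, Rpl3 and Rps19 were added.

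Of the 16 called genes 14 are described here, and single libraries decided 9 of these calls. Without NMO+CL replicate 2 the calls of Rpl5, Rpl6, Rpl8, Rpl35, Rplp0, Rps15, Rps16, Rps18 and Rps27l were lost, and without Normal replicate 3 the lost calls included Rpl6, Rpl8, Rpl35, Rplp0, Rps15, Rps16, Rps18 and Rps27l. Rpl5, Rpl35, Rps15 and Rps16 were also lost without NMO+CL replicate 1 or Normal replicate 1, Rps27l without NMO+CL replicate 1, and Rps18 without Normal replicate 1. Without Normal replicate 2, Rpl5, Rpl6, Rps15, Rps16 and Rps27l were lost. Rps15 was also lost without NMO replicate 1 or 2, and Rps27l without NMO replicate 1. The log2 fold changes of the 9 ran from 0.53 to 1.53 over all alternatives, with adjusted p up to 0.211. Rps2, Rpsa, Rpl10a, Rpl14 and Rpl41 kept their calls under all 18 alternatives.

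The 16 genes rose by 0.62 to 1.84 on the log2 scale. Promoters are shown for the 6 with the highest values, because core promoters of ribosomal protein genes are known to carry a pyrimidine tract at the start site and sites for ETS factors. Sequences are from RefSeq (GRCm38.p6), from 100 bases before the start to 30 after it. Capitals mark runs of at least 8 C or T bases and the letters CCGGAAG on either strand. They come from Rps2 (chr17:24719963-24720092, plus strand), Rpsa (chr9:120127666-120127795, plus strand), Rps27l (chr9:66945986-66946115, plus strand), Rpl10a (chr17:28328371-28328500, plus strand), Rpl14 (chr9:120571417-120571546, plus strand) and Rpl41 (chr10:128549139-128549268, minus strand).
Rps2: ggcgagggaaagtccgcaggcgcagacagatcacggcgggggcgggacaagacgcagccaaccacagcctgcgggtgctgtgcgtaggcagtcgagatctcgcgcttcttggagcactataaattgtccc
Rpsa: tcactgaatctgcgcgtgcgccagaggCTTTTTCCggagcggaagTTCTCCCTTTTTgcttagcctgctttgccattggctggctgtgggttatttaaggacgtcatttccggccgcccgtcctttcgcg
Rps27l: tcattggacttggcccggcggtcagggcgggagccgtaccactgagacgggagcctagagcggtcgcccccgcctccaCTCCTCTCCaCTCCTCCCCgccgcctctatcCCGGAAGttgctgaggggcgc
Rpl10a: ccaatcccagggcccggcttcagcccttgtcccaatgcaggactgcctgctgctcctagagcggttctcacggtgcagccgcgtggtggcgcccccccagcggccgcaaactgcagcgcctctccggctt
Rpl14: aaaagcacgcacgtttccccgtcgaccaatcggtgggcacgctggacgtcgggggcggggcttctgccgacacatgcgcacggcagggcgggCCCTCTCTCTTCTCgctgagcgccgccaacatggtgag
Rpl41: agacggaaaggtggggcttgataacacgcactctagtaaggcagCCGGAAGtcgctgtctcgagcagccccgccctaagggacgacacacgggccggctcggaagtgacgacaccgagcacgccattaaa
Rpsa, Rps27l and Rpl14 held runs of C and T, Rps27l and Rpl41 held CCGGAAG, and Rps2 and Rpl10a had neither in this window. The run of Rpl14 spans the start, those of Rps27l end shortly before it, and those of Rpsa lie further upstream.

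Promoter entries of 300 bases, from 250 before to 50 after the start, were found for 63 of the 84 members. CCGGAAG on either strand was in 39.7% of them and in 9.12% of all 27025 promoters in the table. A run of at least 8 C or T bases on the gene's own strand, within 50 bases of the start, was in 79.4% against 35.7%. AAGATGG (both strands) in 14.3% against 6.48%, CACGTG (its own reverse complement) in 7.94% against 7.24%, CCAAT on either strand in 30.2% against 37.9%, and TATAAA on the gene's strand in 9.52% against 8.88%. The median log2 fold change over the 24 tested members with CCGGAAG was 0.30 for NMO over Normal, 0.27 for NMO+CL over NMO and 0.52 for NMO+CL over Normal, beside 0.28, 0.13 and 0.40 over the 36 without. Over the 48 with a run it was 0.31, 0.16 and 0.45 in these comparisons, beside 0.23, 0.24 and 0.50 over the 12 without. These differences were not tested. These matches describe the letters and not bound sites.

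Among the called genes of the large subunit, Rpl10a, which forms the mobile L1 stalk, stood at 132.5, 134.1 and 125.6 CPM in Normal. It held 172.4, 190 and 185.7 CPM in NMO and 261.4, 298.7 and 266.1 CPM in NMO+CL. The groups did not overlap and the replicates lay close together. It rose by 1.07 ± 0.18 in NMO+CL against Normal (adjusted p = 8.75e-04), or 2.11-fold, and 85.8% of its 3′ words also occurred in the pseudogene Rpl10a-ps1.

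Rpl14 was at 166.1, 167.8 and 127 CPM in Normal, 208.8, 254.2 and 161.3 CPM in NMO, and 298.1, 328.3 and 272.1 CPM in NMO+CL. Its highest values were in NMO+CL, above all other libraries, and its NMO libraries overlapped Normal. It rose by 0.96 ± 0.21 (adjusted p = 0.00603). The Rpl14 transcript searched shared no 3′ word with another gene, although an entry named as its pseudogene, Rpl14-ps1, holds counts. Rpl41, the smallest ribosomal protein, which bridges the subunits, was at 178.7, 236.4 and 184.1 CPM in Normal, 251.5, 272.8 and 280.8 CPM in NMO, and 408.5, 423 and 307.7 CPM in NMO+CL. Its 3 groups followed each other without overlap. The rise was 0.93 ± 0.19 (adjusted p = 0.00471).

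Of the 3 proteins placed near the peptidyl transferase centre, 1 was called, Rpl8, beside 4.78% of all genes called higher. It was at 221.7, 192.4 and 128.7 CPM in Normal and 322.8, 358 and 344.2 CPM in NMO+CL, a rise of 0.92 ± 0.22 (adjusted p = 0.0125). Rpl3 differed by 0.69 ± 0.22 and missed the threshold (adjusted p = 0.0619), though it passed under 6 of the 18 alternatives, and Rpl10 differed by 0.05 ± 0.22 (adjusted p = 0.945). Levels of Rpl10 overlapped in all groups, at 115 to 177.6 CPM in Normal and 141 to 154.6 CPM in NMO+CL.

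Of the 4 stalk proteins, 1 was called, where 4.78% of all genes were called higher. Rplp0, which anchors the stalk to the ribosome, was at 155.3, 154.9 and 121.6 CPM in Normal, 159.4, 215.6 and 160.3 CPM in NMO, and 216.6, 294.8 and 276.4 CPM in NMO+CL. The groups did not overlap, and it rose by 0.87 ± 0.2 (adjusted p = 0.0112), or 1.82-fold. Rplp1 and Rplp2, which bind to it as dimers, differed by 0.47 ± 0.19 (adjusted p = 0.145) and 0.24 ± 0.2 (adjusted p = 0.571), and Rpl12, at the stalk base, by 0.45 ± 0.3 (adjusted p = 0.43). Differences between these members were not tested.

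Rpl5 and Rpl11 bind 5S ribosomal RNA together and, when free, bind Mdm2, the inhibitor of p53. Rpl5 was at 148.9, 203.7 and 234 CPM in Normal, 278.2, 242.1 and 240.4 CPM in NMO, and 306.2, 349.1 and 292.8 CPM in NMO+CL. These groups did not overlap, and it rose by 0.69 ± 0.2 in NMO+CL against Normal (adjusted p = 0.0332). All of its 3′ words occurred in Fam69a, which overlaps it on the opposite strand, so its reads were less certain. Rpl11 spread widely, at 21.64 to 52.07 CPM in Normal and 27.97 to 66.71 CPM in NMO+CL, and differed by 0.48 ± 0.35 (adjusted p = 0.503). Mdm2 itself differed by -0.09 ± 0.27 (adjusted p = 0.916).

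At the peptide exit tunnel, 1 of 8 genes was called (4.78% of all genes were called higher). This was Rpl35, at the site where the signal recognition particle docks, with 90.22, 106.1 and 78.94 CPM in Normal and 153.4, 173.2 and 135.4 CPM in NMO+CL, a rise of 0.75 ± 0.2 (adjusted p = 0.0278). Rpl35 overlaps Wdr38 on the opposite strand. Rpl39, which lines the tunnel, was at 100.3 to 120.1 CPM in Normal and 85.84 to 142.9 CPM in NMO+CL, and differed by 0.10 ± 0.22 (adjusted p = 0.878). The remaining called gene of the large subunit was Rpl6, which rose by 0.71 ± 0.18 (adjusted p = 0.0151) from 213.3 to 232.3 CPM in Normal to 329.8 to 399.1 CPM in NMO+CL, without overlap.

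In the small subunit, Rps18, a protein of the head near the tRNAs, was at 77.81, 96.14 and 73.06 CPM in Normal, 104.5, 121.5 and 84.22 CPM in NMO, and 123.1, 181.4 and 134 CPM in NMO+CL. Its NMO libraries overlapped Normal and its NMO+CL libraries exceeded all others, and it rose by 0.83 ± 0.23 in NMO+CL against Normal (adjusted p = 0.027). Rps15, also in the head, was at 136.2, 108.3 and 119.8 CPM in Normal and 192.3, 192.6 and 174.4 CPM in NMO+CL, a rise of 0.62 ± 0.19 (adjusted p = 0.0447). Rps16, whose tail reaches the tRNA in the P site, was at 160.2, 160.4 and 137.6 CPM in Normal and 243.8, 249.8 and 238.8 CPM in NMO+CL, a rise of 0.68 ± 0.18 (adjusted p = 0.0258). For each of these 3 genes all NMO+CL libraries exceeded all Normal libraries.

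Other members with known roles outside the subunit core did not pass the test. Rps6, the substrate of S6 kinase, was at 62.22, 111.8 and 111.2 CPM in Normal and 133, 146.7 and 136.2 CPM in NMO+CL, which did not overlap, and differed by 0.54 ± 0.23 (adjusted p = 0.172). Rps3, also a DNA repair factor, differed by 0.38 ± 0.19 (adjusted p = 0.251), and Rpl13a, part of a complex that silences inflammatory mRNAs, by 0.36 ± 0.19 (adjusted p = 0.297). Rps26 at the mRNA exit was close to the threshold, at 0.68 ± 0.21 (adjusted p = 0.0544), and passed it under 8 of the 18 alternatives. Rps27a, made as a fusion with ubiquitin, differed by 0.21 ± 0.21 (adjusted p = 0.655). Rps14 and Rps9, the highest genes after Rplp1, differed by 0.29 ± 0.21 (adjusted p = 0.492) and 0.03 ± 0.18 (adjusted p = 0.967), and Rpl17 by 0.16 ± 0.28 (adjusted p = 0.833).

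**Figure D4:**
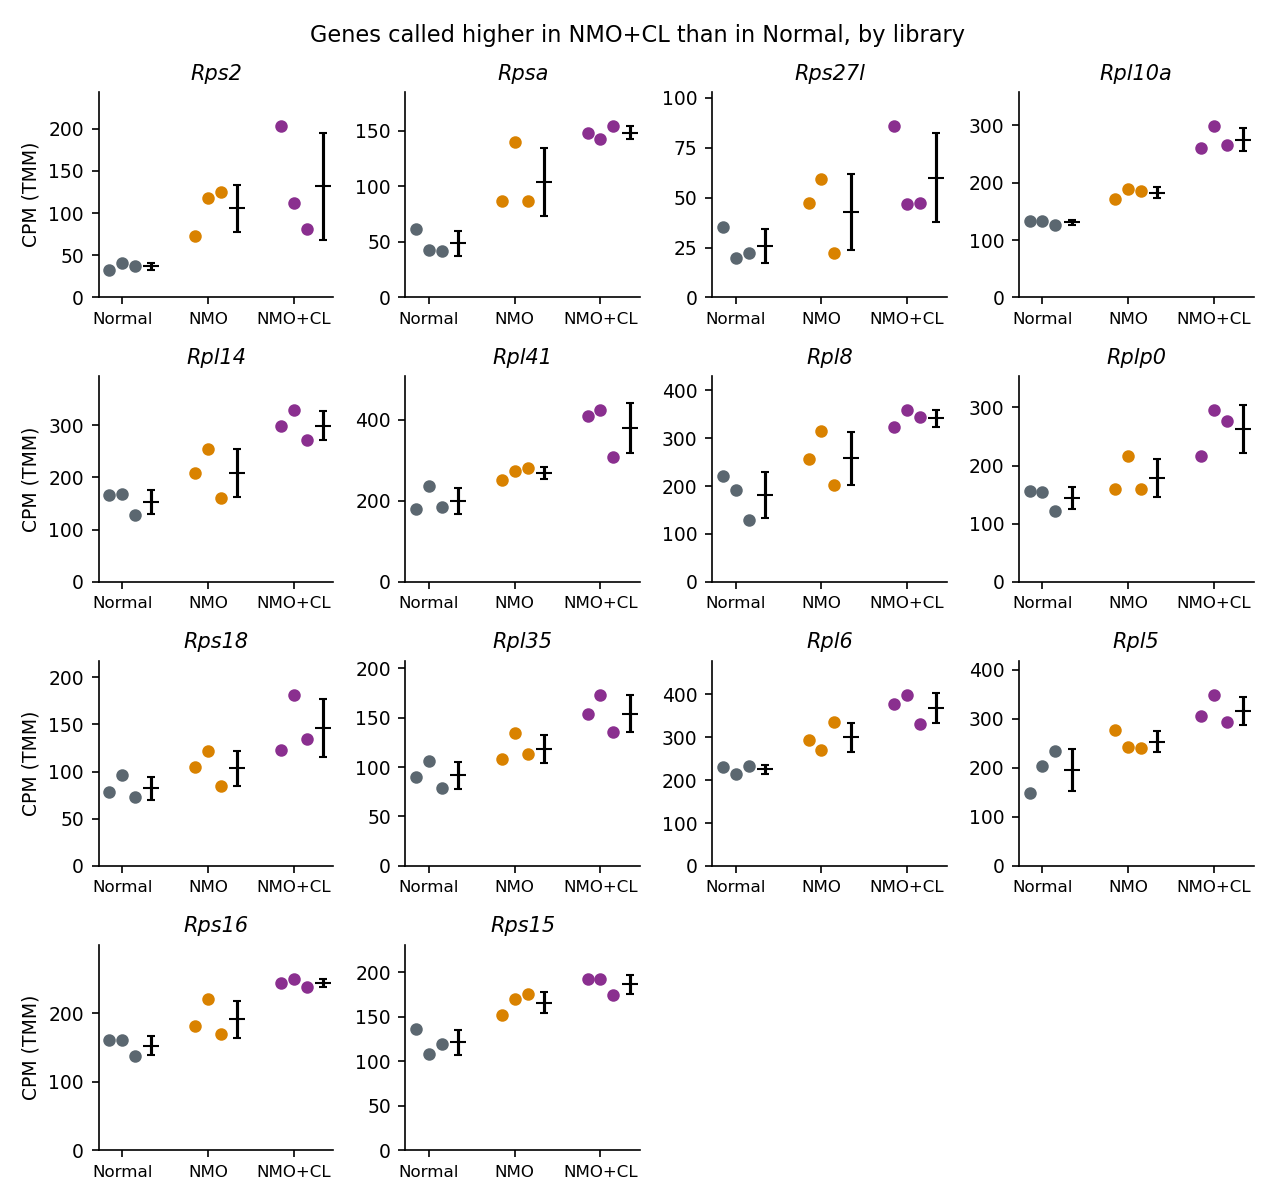
Level in CPM of 14 of the 16 ribosomal protein genes called higher in NMO+CL than in Normal, each panel from 0. Coloured points are libraries, and the black mark and bar are the mean and SD of 3 libraries. Within NMO+CL, Rps2 ranges from 80.56 to 202.9 CPM and Rps16 from 238.8 to 249.8 CPM.

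Members with and without shared 3′ sequence in the transcript searched are set side by side here, with no test of the difference. Over the 26 tested members with none, the median log2 fold change was 0.27, 0.22 and 0.40 in the 3 comparisons in the order above, with 6 called in the last, where 4.78% of all genes were called higher. Over the 33 members with more than 50% shared it was 0.31, 0.16 and 0.45, with 5 called in the last. The 7 ribosomal pseudogene entries held 0.105% ± 0.0219 of Normal counts, 0.126% ± 0.0039 of NMO counts and 0.145% ± 0.00897 of NMO+CL counts. In NMO+CL against Normal their median was 0.39, with 1 called higher, Rpl14-ps1 (1.20 ± 0.25, adjusted p = 0.00527). Summing these entries into their parent genes left 16 members called.

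Of the 7 paralogs, 3 were too low to test and 1 of the other 4 was called higher in NMO+CL against Normal, beside 4.78% of all genes. Rpl3l, known from striated muscle, had no count in any library, which allows up to 3 counts in each. Rpl10l and Rpl39l, known from the male germ line, reached at most 0.15 and 3.23 CPM and were not tested. Rpl22l1 was at 47.26, 42.21 and 30.74 CPM in Normal, 60.12, 48.75 and 58.97 CPM in NMO, and 60.01, 106.6 and 58.82 CPM in NMO+CL. It differed between NMO+CL and Normal by 0.91 ± 0.28 (adjusted p = 0.0532), passing the threshold under 6 of the 18 alternatives. Its counts were 8.72% ± 1.91, 11% ± 1.79 and 13.2% ± 6.01 of those of Rpl22 in the 3 groups. Rpl7l1 differed by 0.17 ± 0.21 (adjusted p = 0.75), with 66.99 to 81.79 CPM in Normal and 81.02 to 90.59 CPM in NMO+CL.

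Rps27l, a p53-induced copy of Rps27, was at 35.32, 19.53 and 22.17 CPM in Normal, 47.19, 59.15 and 22.05 CPM in NMO, and 85.79, 46.9 and 47.31 CPM in NMO+CL. It rose by 1.22 ± 0.37 in NMO+CL against Normal (adjusted p = 0.049), a call lost under 6 of 18 alternatives. Its partner Rps27 was at 36.44, 23.43 and 17.3 CPM in Normal and 15.29, 21.35 and 28.45 CPM in NMO+CL, a difference of -0.25 ± 0.43 (adjusted p = 0.836). Rps27l counts were 96.9, 83.3 and 128% of Rps27 counts in Normal, 184, 191 and 209% in NMO, and 561, 220 and 166% in NMO+CL. These ratios did not overlap between Normal and the injected groups. All 3′ words of Rps27 occurred in other genes, against 13.3% of those of Rps27l.

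Rps4l had the lowest fold change of the module. It was at 31.19, 38.61 and 21.33 CPM in Normal, 26.98, 11.71 and 12.63 CPM in NMO, and 13.98, 13.75 and 10.87 CPM in NMO+CL. Every NMO+CL library lay below every Normal library, and the difference of -1.24 ± 0.42 missed the threshold (adjusted p = 0.0759). Counts of Rps4l were 23.1% ± 5.84, 9.21% ± 5.46 and 6.84% ± 1.02 of those of Rps4x in the 3 groups. GENCODE M21 lists Rps4l as a transcribed processed pseudogene, at chr6:148354656-148355598 on the plus strand, and its shared words were not searched. Rps4x, the X-linked gene of the same protein family, had a difference of 0.53 ± 0.19 (adjusted p = 0.0972) in the other direction, and of the 18 alternatives DESeq2's Wald test called it.

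**Figure D5:**
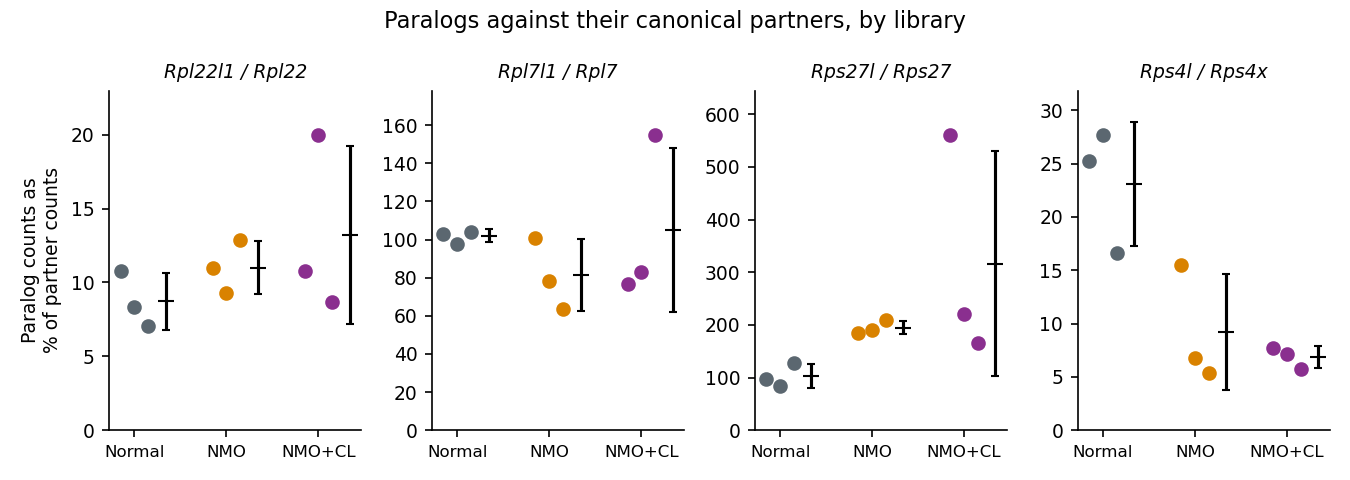
Counts of each tested paralog as % of the counts of its canonical partner, by library, each panel from 0. Coloured points are libraries, and the black mark and bar are the mean and SD of 3 libraries. Rps27l stands at 83.3 to 128% of Rps27 in Normal and at 166 to 561% in NMO+CL, and Rps4l at 16.6 to 27.7% and 5.7 to 7.66% of Rps4x.

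Of 4 genes for ribosomal proteins whose symbols the rule does not cover, 2 were called higher in NMO+CL against Normal, beside 4.78% of all genes. Gnb2l1, the older symbol of Rack1, a signalling scaffold on the head of the small subunit, was at 184.1, 218 and 160.4 CPM in Normal, 222, 326 and 338.8 CPM in NMO, and 358.6, 421.9 and 443.6 CPM in NMO+CL. Its groups did not overlap, and it rose by 1.12 ± 0.2 (adjusted p = 0.00179). Rpl36al rose by 0.86 ± 0.23 (adjusted p = 0.0251), a call lost without NMO+CL replicate 2, Normal replicate 1 or Normal replicate 3. Fau, which encodes a ribosomal protein fused to a ubiquitin-like protein, differed by 0.03 ± 0.17 (adjusted p = 0.956).

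Of 14 translation genes whose mRNAs also carry a TOP motif, 6 were called higher in NMO+CL against Normal (4.78% of all genes) and 0 lower (4.43%), and 2 were called higher in NMO against Normal (0.472%). Eef1g, a subunit of the exchange factor of elongation, was at 39.78, 47.77 and 47.53 CPM in Normal, 130.9, 131.2 and 141.8 CPM in NMO, and 189.9, 192.3 and 125.2 CPM in NMO+CL. It rose by 1.58 ± 0.22 in NMO (adjusted p = 0.00274) and by 1.91 ± 0.22 in NMO+CL (adjusted p = 3.98e-05). Nap1l1, a histone chaperone, rose by 1.08 ± 0.23 (adjusted p = 0.0466) and 1.32 ± 0.23 (adjusted p = 0.00147). The other 4 called in NMO+CL against Normal were the initiation factor subunits Eif3e (1.06 ± 0.26, adjusted p = 0.0131) and Eif3a (0.87 ± 0.19, adjusted p = 0.00603), and the elongation factors Eef1b2 (0.78 ± 0.2, adjusted p = 0.0164) and Eef2 (0.76 ± 0.16, adjusted p = 0.00493). The NMO call of Nap1l1 was lost under 11 of 18 alternatives, among them the loss of any single Normal or NMO library. Without NMO+CL replicate 2 or Normal replicate 1 the calls of Eif3e and Eef1b2 were lost, as was that of Eif3e without Normal replicate 2 and that of Eef1b2 without Normal replicate 3. Eef1a1 and Tpt1, high in all libraries, differed by 0.53 ± 0.27 (adjusted p = 0.261) and 0.12 ± 0.17 (adjusted p = 0.77).

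Among 16 regulators of ribosomal protein synthesis, 2 were called higher and 1 lower in NMO+CL against Normal, where 4.78% of all genes were called higher and 4.43% lower. Eif4ebp1, the mTOR target that blocks initiation when unphosphorylated, was at 12.73, 21.63 and 14.11 CPM in Normal, 31.38, 29.28 and 56.74 CPM in NMO, and 68.45, 62.58 and 49.23 CPM in NMO+CL. It rose by 1.89 ± 0.34 (adjusted p = 0.00154). Larp4, which binds poly(A) tails and stabilises mRNAs, rose by 0.76 ± 0.21 (adjusted p = 0.0278). Pdcd4, an inhibitor of the helicase eIF4A, was at 54.1, 42.51 and 23.51 CPM in Normal and 6.55, 14.55 and 13.59 CPM in NMO+CL, and fell by 1.79 on the log2 scale (SE 0.41, adjusted p = 0.0101). The call of Larp4 was lost without NMO+CL replicate 2 or any single Normal library, and that of Pdcd4 without Normal replicate 1. Mtor, Larp1 and Myc differed by -0.01 ± 0.39, 0.58 ± 0.23 and -0.68 ± 0.7, with adjusted p = 0.993, 0.137 and 0.674.

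Of 14 tested genes of ribosome surveillance, 1 was called, Usp10, a deubiquitinase that rescues stalled small subunits, which rose by 0.84 ± 0.24 (adjusted p = 0.0377), a call lost under 9 of 18 alternatives, among them the loss of any single Normal or NMO+CL library. This is 7.14% of the list, beside 4.78% of all genes called higher. Ribosomal proteins of mitochondria, a separate set of 77 tested genes, had medians of 0.30, -0.03 and 0.26 in the 3 comparisons in the same order. In NMO+CL against Normal, 4 were called higher and 0 lower, which is 5.19% beside the 4.78% of all genes and the 19.8% of the cytoplasmic members. They were Mrps18b (1.84 ± 0.33), Mrpl12 (1.53 ± 0.28), Mrpl30 (1.28 ± 0.36) and Mrpl52 (1.12 ± 0.27), with adjusted p of 0.0015 to 0.0318. The highest mitochondrial gene, Mrpl24, had a mean of 82.43 CPM over the 9 libraries, under the canonical cytoplasmic median of 136.4 CPM. Precision falls at lower levels, so the called shares of the mitochondrial and cytoplasmic sets are not directly comparable. The part of level in them was not tested. The calls of Mrpl30 and Mrpl52 were lost without NMO+CL replicate 2, Normal replicate 1 or Normal replicate 3, and that of Mrpl30 also without NMO+CL replicate 1 or Normal replicate 2.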

How the data were processed

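QuantSeq 3′ libraries of 9 pooled microglia samples were read as single 75-base ends. The authors aligned them with Bowtie2 and counted unique and multiple alignments per gene with bedtools, so reads matching several copies may be counted at each. Per the submitters' processing notes the build was mm10. The annotation and the use of strand are not given in the sources used here. The deposited values are raw read counts. Entries with the same symbol were summed. Counts were filtered with filterByExpr (minimum count 10, minimum total 15), scaled by TMM and fitted over all 9 libraries with edgeR 4.0.16 in R 4.3.3 by two-sided quasi-likelihood F-tests, adjusted by Benjamini and Hochberg over 12292 genes. Calls were made under an adjusted p of 0.05. The common coefficient of biological variation was 0.519. CPM used TMM-scaled sizes. limma 3.58.1 and DESeq2 1.42.0 served as alternatives. Groups followed the labels, and p-values rest on the spread between pools. A count of 0 allows 3 counts at 95% confidence, for counting error only, as no molecular identifiers were used. Replicates of a group differed by more than counting noise (chi-square per degree of freedom 23.2 to 55.5). The fit was tested on simulated counts with known changes. Gene coordinates and shared words came from GENCODE M21 (GRCm38).

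The members and lists were chosen with earlier results of these data known. Genes were named as proteins with known roles and all paralogs, the called members with the 5 largest changes at a mean count of at least 50, the 3 highest and 3 lowest levels, and the called members of 4 related lists. Other genes named, such as the remaining called members, were chosen after their values were seen. Lists are described by counts and medians without set tests. Alternatives were other scalings, no filter, DESeq2, limma-voom, a replicate block, pseudogene entries summed in, and each library left out. Scaling by totals without Rn45s was added after the data were seen. Values of 3 genes are not reported here, and they remain in the counts and medians.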

Additional observations from a re-analysis of the deposited data

How the results depend on the processing

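No member was called lower in any comparison under any of the 18 alternatives, and the median log2 fold change stayed above 0 in all of them, at 0.21 to 0.40 in NMO against Normal, 0.14 to 0.25 in NMO+CL against NMO and 0.39 to 0.51 in NMO+CL against Normal. Members called higher in NMO against Normal numbered 2 with DESeq2's Wald test, library totals, totals without Rn45s or no filter, the added gene being Rpsa. They numbered 0 with limma-voom, and 0 to 1 with a library left out. Without NMO replicate 3 the gene called was Rpsa and not Rps2. Library totals also gave the median of 0.40, with the median of all genes then at 0.10 and the members 0.30 above it. In NMO+CL against NMO, DESeq2 called 1. In NMO+CL against Normal the count was 7 to 20 with a library left out, 24 with DESeq2 (16 of them shared), 22 with totals without Rn45s, and 20 with library totals or no filter. Rps2, Rpsa, Rpl10a, Rpl14 and Rpl41 were called there under all 18. Without Rn45s the share of counts was 1.56, 1.83 and 2.21% in Normal, NMO and NMO+CL. The sign turned for genes near 0 in NMO+CL against Normal, Rpl10 at -0.002 without Normal replicate 2 and -0.08 without Normal replicate 3, and Rpl39 at -0.08 without NMO+CL replicate 1. Over the libraries left out, Rpl10 ran from -0.08 to 0.25 and Rpl39 from -0.08 to 0.28. Other uncalled genes also moved in this comparison with a library left out. Rpl11 ran from 0.2 to 0.86, Rplp2 from 0.12 to 0.46 and Rps27a from 0.04 to 0.4. Rps6 ran from 0.32 to 0.68, Rpl22l1 from 0.57 to 1.06 and Rpl7l1 from 0.09 to 0.23. The causes were not tested.

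Deviations of same-numbered libraries from their group means correlated at -0.0148 to 0.0302. Whether these libraries were processed together is not given in the sources used here, and the correlations cannot decide it. With the replicate number as a block, 1, 0 and 16 members were called higher in the 3 comparisons, 15 of the 16 shared, with Rps15 lost and Rps19 gained. The 3 pools in each group limit the precision of all values.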
